A study of Homo sapiens with 12 samples.

Results

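The 38 genes described here encode the endoplasmic reticulum (ER) unfolded protein response and the secretory machinery it serves. They are the rows of the deposited expression tables whose gene symbol is on a list of 38 names, and all 38 were found among the 23273 genes that each table holds. The list was chosen with earlier results of these data known, so shares set against all genes below are descriptions and not tests. RNA-seq was performed on COLO858 and MMACSF, established human melanoma lines with mutant BRAF, after DMSO vehicle or 24 or 48 h in 0.2 μM vemurafenib, an inhibitor of the mutant RAF kinase. Each of the 6 groups had 2 libraries, replicates 1 and 2 (12 libraries in all), and the time at which the DMSO-treated cells were harvested is not given in the labels. Each genotype is 1 cultured line, the lines were grown in different media and seeded at different densities, and the labels speak of replicate plates, so the p-values measure the spread between plates of 1 line. The question was how the genes of ER protein folding and export moved in drug, and whether they moved alike in both lines.

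Secreted and membrane proteins fold in the ER. When unfolded chains build up there, the sensors IRE1 (ERN1), PERK (EIF2AK3), and ATF6 signal to the nucleus through XBP1, ATF4, and cleaved ATF6, and these factors turn on chaperones, disulfide-forming enzymes, and the machinery that pulls misfolded chains out of the ER for degradation (ERAD). PERK also slows translation by phosphorylating eIF2α, which PPP1R15A (GADD34) reverses. Pigmented melanoma cells carry a large load of membrane glycoproteins through this pathway.

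Values are FPKM, read fragments per kilobase of transcript, scaled by the number mapped, and the authors deposited them as 1 table per line. Fold-changes and their standard errors (SE) are on the log2(FPKM + 1) scale, tests are limma's, and p-values are adjusted by Benjamini-Hochberg over all genes tested, with a threshold of 0.01. A gene was tested where the mean of any group reached 1 FPKM, which took in 37 of 38 members in COLO858 and 36 in MMACSF. ATF6B was listed at 0 in all 12 libraries, and DERL3 did not reach the minimum in MMACSF. Whether the tables were scaled together is not stated, so levels in the lines are set side by side without a test. The sums of FPKM, which are no depth, were 670310 to 1013040 in COLO858 and 726083 to 856083 in MMACSF, and MIR4461 alone took 14.1% to 43.4% and 14.7% to 33.0% of them. In every group the sum and the MIR4461 share were higher in replicate 2 than in replicate 1. Read depth is unknown.

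The melanoma label was checked against 8 melanocyte lineage markers. SOX10, MITF, PMEL, TYRP1, DCT, and S100B were present in both lines, whereas MLANA and TYR were nearly absent from COLO858 (0.30 to 0.72 FPKM for MLANA and 0.28 to 1.21 FPKM for TYR). Summed over the 8 markers, the level in COLO858 was 702 to 717 FPKM under DMSO, 3922 to 4158 at 24 h, and 4144 to 4149 at 48 h, and in MMACSF it was 11160 to 11373, 15589 to 16776, and 16831 to 17555 FPKM. Of the 4 fibroblast markers (LUM, DCN, COL1A1, PDGFRB), LUM made up most of the sum, which was 6.50 to 9.30, 15.0 to 18.4, and 18.5 to 28.4 FPKM over DMSO, 24 h, and 48 h in COLO858 and 54.8 to 76.4, 41.8 to 50.4, and 19.1 to 27.7 FPKM in MMACSF. COL1A1 stayed at or below 1.54 FPKM in every library, and DCN was listed at 0 in both COLO858 DMSO libraries. The 4 immune, 4 endothelial, and 4 keratinocyte markers summed to at most 1.08, 0.794, and 0.632 FPKM in any library. The melanocyte and fibroblast sums moved with treatment, as the members described below did, and their part in the results was not tested.

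Factors of this response read short elements in the promoters of its targets. Promoter windows from RefSeq (GRCh38.p14; 250 bases before to 50 after each annotated start) were available for 34 of the 38 members, in 41 windows. They were searched on both strands for the ER stress element ERSE (CCAAT and CCACG with 9 bases of any kind between), for ERSE-II (ATTGG and CCACG with 1 base between), and for the core of the unfolded protein response element, UPRE (TGACGTGG). ERSE was found in 6 of the 34 members (HSPA5, HSP90B1, CRELD2, PDIA6, ERO1LB, and XBP1), against 0.0769% of the 35116 windows of all genes. ERSE-II was found in 3 members (SDF2L1, HYOU1, and HERPUD1), against 0.0541% of windows. The UPRE core was found in 3 (HYOU1, SSR3, and KDELR3), against 0.729%, and in HYOU1 it overlaps the distal ERSE-II. Any of the 3 motifs was found in 11 of 34 members and 0.857% of all windows. Members are counted by gene over all their windows and the background by window, so counts and shares are not like for like. The list is of genes of this response, and the contrast was not tested. Only exact matches were counted, so an element with a changed base would be missed. A match is a run of letters and not a shown site of binding.

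The 250 bases before the start are printed, with motif matches in capitals, for 5 members past the threshold in a comparison. All 5 hold a motif, and members past the threshold without any, such as MANF, are not printed. HSPA5, HYOU1, and HERPUD1 responded differently in the 2 lines at 24 h, XBP1 fell in MMACSF, and ERO1LB responded differently at 48 h.
HSPA5 (chr9:125241344-125241593, minus strand): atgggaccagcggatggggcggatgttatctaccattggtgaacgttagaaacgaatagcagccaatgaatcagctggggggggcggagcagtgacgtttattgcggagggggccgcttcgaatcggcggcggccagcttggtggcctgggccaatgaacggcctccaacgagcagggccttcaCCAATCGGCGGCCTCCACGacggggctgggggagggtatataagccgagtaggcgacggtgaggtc
HYOU1 (chr11:119057206-119057455, minus strand): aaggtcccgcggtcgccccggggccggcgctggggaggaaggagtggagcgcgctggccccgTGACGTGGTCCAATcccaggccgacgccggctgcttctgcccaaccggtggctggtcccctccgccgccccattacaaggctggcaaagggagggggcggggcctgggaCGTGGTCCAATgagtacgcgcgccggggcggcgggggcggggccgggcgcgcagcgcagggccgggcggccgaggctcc
HERPUD1 (chr16:56931892-56932141, plus strand): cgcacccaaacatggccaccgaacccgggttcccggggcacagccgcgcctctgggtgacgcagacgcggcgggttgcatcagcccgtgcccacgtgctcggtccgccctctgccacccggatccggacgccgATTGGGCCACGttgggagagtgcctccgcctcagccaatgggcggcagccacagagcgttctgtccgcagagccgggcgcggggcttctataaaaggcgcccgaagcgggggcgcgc
XBP1 (chr22:28800570-28800819, minus strand): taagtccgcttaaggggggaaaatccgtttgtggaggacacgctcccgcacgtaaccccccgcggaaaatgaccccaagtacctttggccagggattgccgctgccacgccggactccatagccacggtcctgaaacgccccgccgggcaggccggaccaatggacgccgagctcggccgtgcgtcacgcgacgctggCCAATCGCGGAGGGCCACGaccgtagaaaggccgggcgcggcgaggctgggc
ERO1LB (chr1:236281959-236282208, minus strand): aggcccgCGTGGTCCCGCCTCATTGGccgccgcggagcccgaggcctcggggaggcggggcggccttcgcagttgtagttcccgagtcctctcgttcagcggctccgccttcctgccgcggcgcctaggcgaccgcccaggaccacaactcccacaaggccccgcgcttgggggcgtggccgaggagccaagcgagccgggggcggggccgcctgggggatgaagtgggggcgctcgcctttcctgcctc
HSPA5 holds 1 exact ERSE 66 bases before its start, XBP1 holds 1 at 52 bases, and HERPUD1 holds 1 ERSE-II at 117 bases. HYOU1 holds ERSE-II in reverse orientation at 185 and 79 bases. ERO1LB holds an ERSE in reverse orientation at 243 bases, the farthest from the start among the members. MANF, which had the largest decrease of all members, held no exact match to the 3 motifs in its window.

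**Figure D1:**
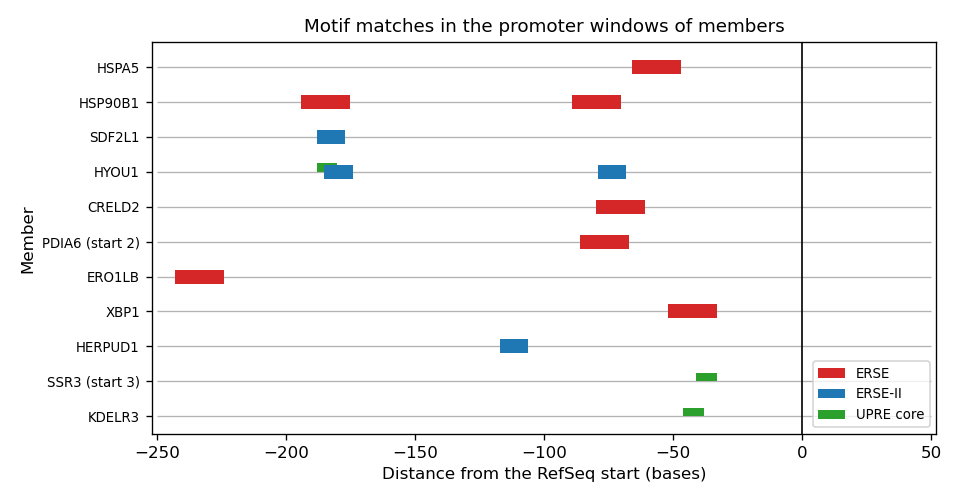
Motif matches in the RefSeq promoter windows of the 11 members that hold any of the 3 motifs, by distance from the annotated start in bases (red ERSE, blue ERSE-II, green UPRE core). HSP90B1 and HYOU1 hold more than 1 match, and ERO1LB holds its ERSE farthest from the start.

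The clearest change among the 38 genes was in MMACSF at 48 h. Of 36 members tested, 8 fell and 0 rose, which is 22.2% of them, against 8.83% of all 12599 genes called in either direction (3.42% higher and 5.41% lower). The 8 were the chaperones HSPA5, HSP90B1, DNAJB11, HYOU1, and MANF, the disulfide isomerases PDIA4 and PDIA6, and the transcription factor XBP1. Fold-changes were below 0 for 29 of the 36, with a median of −0.36 against 0.06 over all genes tested. In these bulk libraries fewer cells of a kind and less RNA per cell cannot be told apart. When any 1 of the 4 libraries of this comparison was left out (MMACSF DMSO replicate 1 or 2, or 48 h replicate 1 or 2), 0 members passed the threshold, while between 0.905% and 1.07% of all genes did.

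In COLO858 at 48 h, 1 of 37 members passed the threshold, PDIA5, which fell (2.70% of members, against 9.47% of 12696 genes, 4.74% higher and 4.73% lower). The member median was −0.24 against −0.01 for all genes, with 24 of 37 below 0. PDIA5 was not past the threshold when COLO858 DMSO replicate 1 or 2, or 48 h replicate 1 or 2, was left out. At 24 h, limma called 0 of 37 members in COLO858, against 9.82% of all genes (4.11% higher and 5.71% lower). There 12 members had an unadjusted p under 0.05. The share of all genes at that unadjusted level was not counted, here or below, so such counts are not read as a response. With the replicate number as a block, a pairing that the labels do not state, 20 members passed at 24 h (9 higher, 11 lower), against 45% of all genes. The results for single genes below are from fits without that block, except where stated. At that time 19 members lay above and 18 below 0, with a median of 0.01 against 0.06 for all genes, and after median-ratio rescaling of the libraries the split was 17 above and 20 below. In the same comparison 13 members had both drug libraries above both controls, and 13 had both below. The share of all genes so separated was not counted, so groups that do not overlap, named below, are not read as support.

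In MMACSF at 24 h, 1 of 36 members passed the threshold, MANF, which fell (2.78%, against 5.83% of all genes, 2.22% higher and 3.6% lower). The member median was −0.25 against 0.07, with 24 of 36 below 0. MANF was not past the threshold in this comparison without MMACSF DMSO replicate 1 or 2, or without 24 h replicate 1 or 2. The 24 h and 48 h comparisons of a line share its DMSO libraries and are not independent of each other.

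**Figure D2:**
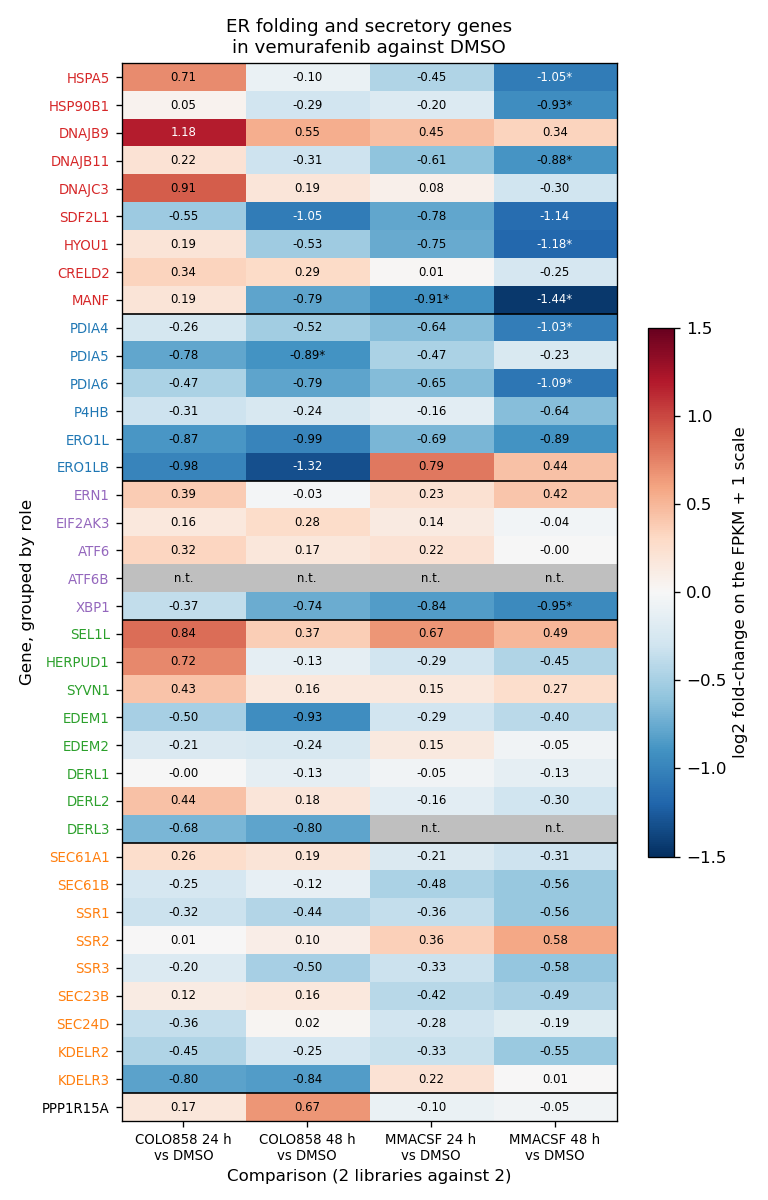
Fold-change of each of the 38 members in vemurafenib against DMSO (log2, FPKM + 1 scale; columns are line and time, 2 libraries against 2; gene names are colored by role; an asterisk marks adjusted p under 0.01, and n.t. marks genes not tested). The chaperone rows are red in COLO858 at 24 h for 8 of 9 genes and blue in MMACSF at 48 h for 8 of 9, and 10 of the cells carry an asterisk.

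Of the 9 ER chaperones and their partners, 3 (HSPA5, HYOU1, and MANF) responded differently in the 2 lines at 24 h by the interaction test and 0 at 48 h, where 5 had an unadjusted p under 0.05 by limma. HSPA5 (GRCh37 chr9:127997132-128003661, minus strand, by GENCODE as for the other genes below) encodes BiP, the Hsp70 chaperone that binds unfolded chains and holds the 3 sensors inactive. It was at 171.9 and 206.8 FPKM in the COLO858 DMSO libraries, 291.3 and 325.7 at 24 h, and 160.1 and 193.9 at 48 h. In MMACSF it was at 208.1 and 231.7 FPKM under DMSO, 160.2 and 161.0 at 24 h, and 106.3 and 104.9 at 48 h. Both COLO858 24 h libraries thus lay above the other 4 of that line, while in MMACSF the 3 groups did not overlap and stood in the order DMSO, 24 h, 48 h. In MMACSF HSPA5 fell at 48 h by 1.05 on the log2 scale (SE 0.106, adjusted p = 0.00342), and the mean was 2.08-fold lower. In COLO858 the 24 h fold-change was 0.71 (SE 0.163, adjusted p = 0.0319), not past the threshold, and the 48 h fold-change was −0.10 (adjusted p = 0.702). The 24 h responses differed between the lines by 1.15 (SE 0.186, adjusted p = 0.00737 for the interaction), and the difference at 48 h was 0.95 (adjusted p = 0.0108). After median-ratio rescaling the 48 h interaction passed the threshold (0.999, adjusted p = 0.0018).

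MANF (GRCh37 chr3:51422722-51426828, plus strand), an ER protein that binds BiP and is secreted, decreased the most. The MMACSF libraries held 93.7 and 92.9 FPKM of it under DMSO, 49.0 and 49.6 at 24 h, and 35.1 and 32.3 at 48 h. The 3 groups did not overlap, and the level at 48 h was 2.77-fold lower than under DMSO. MANF fell by 0.91 at 24 h (SE 0.106, adjusted p = 0.00634) and by 1.44 at 48 h (SE 0.106, adjusted p = 0.00143). In COLO858 it was at 66.4 and 66.0 FPKM under DMSO, 81.1 and 70.3 at 24 h, and 37.2 and 38.6 at 48 h. There too the 48 h libraries were the lowest, with a fold-change of −0.79 against DMSO (adjusted p = 0.0123) and −0.98 against 24 h (adjusted p = 0.0186), neither past the threshold. The 24 h responses differed by 1.10 (SE 0.138, adjusted p = 0.00248).

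HYOU1 (GRCh37 chr11:118914899-118927938, minus strand), the large Hsp70-like chaperone that exchanges nucleotide on BiP, followed the same order. Its levels in MMACSF were 76.5 and 77.4 FPKM under DMSO, 42.5 and 48.2 at 24 h, and 34.7 and 32.3 at 48 h. In COLO858 they were 60.6 and 58.1, 66.6 and 69.5, and 40.2 and 41.2 FPKM. HYOU1 fell in MMACSF at 48 h by 1.18 (SE 0.118, adjusted p = 0.00328), a 2.30-fold lower mean. In COLO858 the 24 h libraries were the highest and the 48 h libraries the lowest, with fold-changes of 0.19 (adjusted p = 0.273) and −0.53 (adjusted p = 0.0274). The lines differed at 24 h by 0.95 (SE 0.134, adjusted p = 0.00427) and by 0.64 at 48 h (adjusted p = 0.0142).

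HSP90B1 encodes GRP94, the Hsp90 of the ER, and was the most abundant member in COLO858. It was at 539.3 and 684.6 FPKM under DMSO, 584.4 and 681.1 at 24 h, and 442.3 and 561.8 at 48 h, groups that overlap. In MMACSF the values were 307.4 and 334.6, 272.3 and 285.6, and 163.6 and 172.2 FPKM. The 3 MMACSF groups did not overlap, and HSP90B1 fell at 48 h by 0.93 (SE 0.106, adjusted p = 0.00474), a 1.91-fold lower mean. DNAJB11, a J-domain cochaperone of BiP, fell by 0.88 (SE 0.115, adjusted p = 0.00662), from 51.6 and 48.5 FPKM under DMSO to 34.0 and 31.1 at 24 h and 27.4 and 26.1 at 48 h. In COLO858 DNAJB11 was at 80.8 and 97.9, 104.5 and 103.2, and 65.4 and 78.0 FPKM, highest at 24 h.

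**Figure D3:**
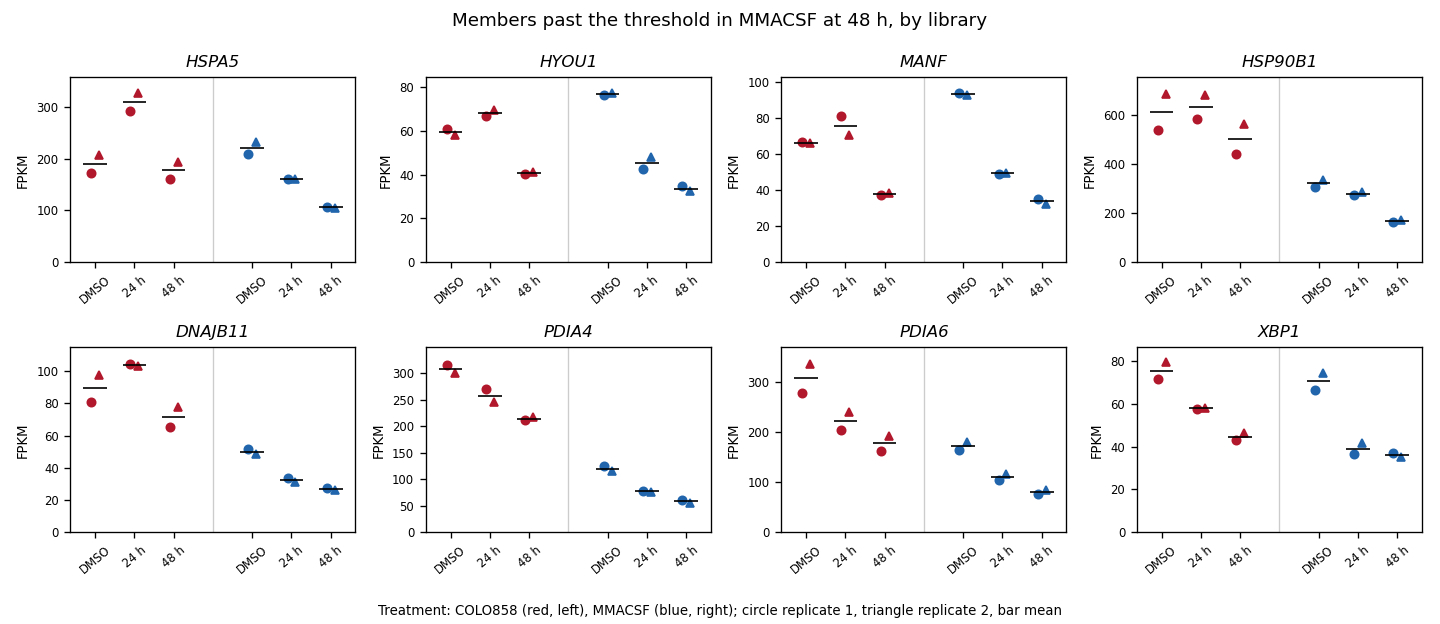
FPKM by library of the 8 members past the threshold in MMACSF at 48 h (red COLO858, blue MMACSF; circles replicate 1, triangles replicate 2, bars the mean of 2; axes start at 0). The 8 were chosen by their fall in MMACSF at 48 h, so their lower position there is given by the choice. In COLO858 HSPA5 is highest at 24 h, at 291.3 and 325.7 FPKM.

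The other 4 of the group did not pass the threshold in any comparison, and the J-domain genes DNAJB9 and DNAJC3 are given here because of their values. DNAJB9 (ERdj4), a BiP cochaperone, was at 6.13 and 7.60 FPKM in COLO858 under DMSO, 14.8 and 18.9 at 24 h, and 7.90 and 13.7 at 48 h, with a 24 h fold-change of 1.18 (SE 0.288, adjusted p = 0.0368), the highest of all members. DNAJC3 (p58IPK), another BiP cochaperone, was at 6.77 and 9.46, 14.0 and 18.0, and 7.59 and 11.3 FPKM, with a fold-change of 0.91 (SE 0.262, adjusted p = 0.0583). For both genes the 24 h libraries were the highest of the line, and replicate 2 lay above replicate 1 in each COLO858 group. In MMACSF their 24 h fold-changes were 0.45 (adjusted p = 0.138) and 0.08 (adjusted p = 0.807). SDF2L1, a component of ER chaperone complexes, had 48 h fold-changes of −1.05 in COLO858 (SE 0.377, adjusted p = 0.102) and −1.14 in MMACSF (SE 0.295, adjusted p = 0.0443), and CRELD2 had 0.29 and −0.25. Over the 9 genes, the 24 h median was 0.22 in COLO858 (8 above 0, 7 after rescaling) and −0.45 in MMACSF (6 below 0, 8 after rescaling). The response in COLO858 minus that in MMACSF at 24 h was above 0 for all 9 chaperones, also after rescaling, with a median of 0.83 against −0.01 for all genes. The difference at 48 h was likewise above 0 for all 9, also after rescaling, with a median of 0.57 against −0.04 for all genes. At 48 h the chaperone median was −0.29 in COLO858 and −0.93 in MMACSF, where 5 of 9 fell.

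The 6 enzymes of oxidative folding, which form and rearrange disulfide bonds, all had fold-changes below 0 in COLO858 at both times, with medians of −0.63 at 24 h and −0.84 at 48 h. In MMACSF 5 of 6 were below 0 at each time, with medians of −0.55 and −0.77. PDIA4 was at 124.4 and 115.5 FPKM in MMACSF under DMSO, 78.6 and 75.1 at 24 h, and 60.5 and 55.8 at 48 h, a decrease at 48 h by 1.03 (SE 0.110, adjusted p = 0.00398). PDIA6 was at 163.9 and 180.1, 103.5 and 115.2, and 76.2 and 84.4 FPKM and fell by 1.09 (SE 0.123, adjusted p = 0.00451). The groups of both genes were separate and in the order of time. In COLO858 PDIA4 was at 316.2 and 300.5, 269.8 and 245.1, and 210.9 and 217.1 FPKM, and PDIA6 at 278.7 and 335.2, 203.5 and 239.1, and 162.9 and 192.1 FPKM. The order was the same, with 48 h fold-changes of −0.52 (adjusted p = 0.0265) and −0.79 (adjusted p = 0.0252), not past the threshold.

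PDIA5 (GRCh37 chr3:122785872-122944074, plus strand) was the member that passed in COLO858. It was at 29.6 and 26.9 FPKM under DMSO, 16.2 and 15.7 at 24 h, and 15.2 and 14.3 at 48 h. Both treated groups lay far below the control, and PDIA5 fell by 0.89 at 48 h (SE 0.131, adjusted p = 0.00928), a 1.92-fold lower mean. The 24 h fold-change was −0.78 (SE 0.131, adjusted p = 0.0130). The call at 48 h was lost without the expression minimum (adjusted p = 0.0114), after median-ratio rescaling (adjusted p = 0.0132), and when only the 4 libraries compared were fitted (adjusted p = 0.0277). In MMACSF PDIA5 was at 14.2 and 12.5, 9.66 and 9.00, and 11.5 and 10.9 FPKM, with a 48 h fold-change of −0.23 (adjusted p = 0.260).

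The ERO1 oxidases pass electrons from the disulfide isomerases to oxygen. ERO1LB (ERO1 beta, GRCh37 chr1:236377981-236445319, minus strand) was at 9.91 and 15.3 FPKM in COLO858 under DMSO, 5.17 and 6.35 at 24 h, and 3.77 and 4.98 at 48 h. In MMACSF it was at 2.19 and 2.64 FPKM under DMSO, 4.53 and 5.26 at 24 h, and 3.19 and 4.09 at 48 h. The treated libraries thus lay below both controls in COLO858 and above both controls in MMACSF. The fold-changes within a line did not pass the threshold (−1.32, adjusted p = 0.0190, in COLO858 and 0.44, adjusted p = 0.130, in MMACSF at 48 h). The responses differed between the lines at 48 h by −1.76 (SE 0.312, adjusted p = 0.00700), and at 24 h the difference was −1.77 (adjusted p = 0.0110). The call at 48 h was lost without the expression minimum (adjusted p = 0.0107). It was also lost without each of these libraries in turn: COLO858 DMSO replicate 2, either COLO858 48 h replicate, either MMACSF DMSO replicate, and either MMACSF 48 h replicate. ERO1L (ERO1 alpha) had fold-changes of −0.99 (adjusted p = 0.0610) in COLO858 and −0.89 (adjusted p = 0.0617) in MMACSF at 48 h. P4HB, the classical protein disulfide isomerase, had 48 h fold-changes of −0.24 and −0.64 (adjusted p = 0.471 and 0.0805).

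**Figure D4:**
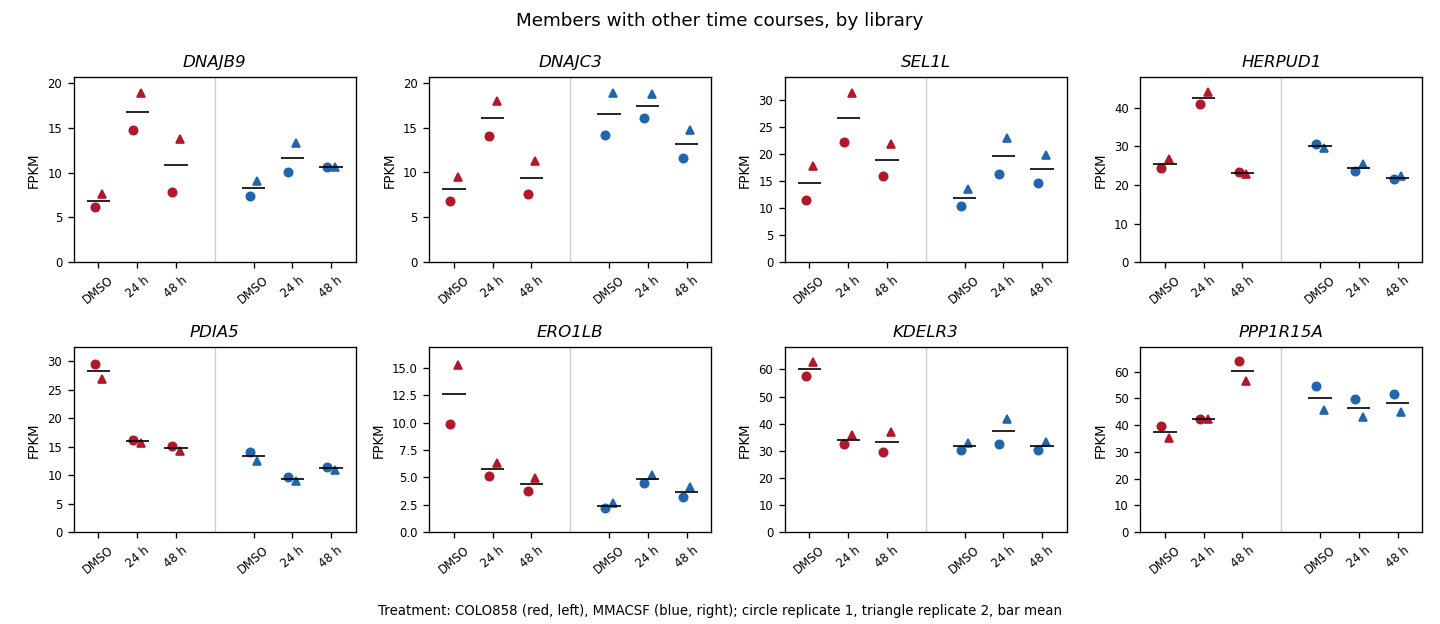
FPKM by library of 8 members with other courses (red COLO858, blue MMACSF; circles replicate 1, triangles replicate 2, bars the mean of 2; axes start at 0). HERPUD1 is highest in the COLO858 24 h libraries (41.0 and 44.0 FPKM), and ERO1LB lies below its controls in COLO858 and above them in MMACSF.

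Among the sensors and their factors, XBP1 was the member that changed. XBP1 (GRCh37 chr22:29190543-29196585, minus strand) is the transcription factor whose mRNA is spliced by IRE1, and gene-level FPKM cannot tell the spliced from the unspliced form. It was at 66.5 and 74.5 FPKM in MMACSF under DMSO, 36.6 and 41.6 at 24 h, and 36.8 and 35.0 at 48 h. Both treated groups lay below the control and overlapped each other, and XBP1 fell at 48 h by 0.95 (SE 0.127, adjusted p = 0.00695), with −0.84 at 24 h (adjusted p = 0.0119). In COLO858 it was at 71.6 and 79.3, 57.7 and 58.2, and 43.0 and 46.3 FPKM, with a 48 h fold-change of −0.74 (adjusted p = 0.0131) and groups that did not overlap. After median-ratio rescaling the 48 h fold-change in COLO858 passed the threshold (−0.784, adjusted p = 0.00822). Without rescaling, the responses of the lines differed by 0.46 after 24 h (adjusted p = 0.118) and by 0.21 after 48 h (adjusted p = 0.455), neither past the threshold.

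The sensors themselves were expressed at low levels. ERN1 was at 2.82 and 2.32 FPKM in COLO858 under DMSO, 3.57 and 3.74 at 24 h, and 2.91 and 2.09 at 48 h, and in MMACSF at 1.72 and 2.35, 2.22 and 2.90, and 3.30 and 2.80 FPKM. ATF6 was at 8.14 and 11.4, 10.2 and 14.8, and 9.03 and 13.3 FPKM in COLO858 and at 6.23 and 9.10, 7.84 and 10.2, and 6.44 and 8.78 FPKM in MMACSF. For ATF6 the gap between replicates was as wide as that between groups, and the groups of each line overlapped. Replicate 2 was the higher in every group. With the replicate number as a block, limma called ATF6 in COLO858 at 24 h (0.32, adjusted p = 0.00777) but not at 48 h (adjusted p = 0.0502). In MMACSF it was not past the threshold with the block at either time. EIF2AK3 ranged from 4.10 to 6.65 FPKM in COLO858 and from 4.51 to 5.89 FPKM in MMACSF. The fold-changes of the 3 sensors against DMSO lay between −0.04 and 0.42, with adjusted p of 0.169 or more without the block.

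The 8 ERAD members had medians of 0.21 (24 h) and −0.13 (48 h) in COLO858, and the 7 tested in MMACSF had −0.05 and −0.13. HERPUD1 (GRCh37 chr16:56966054-56978776, plus strand) encodes a protein of the ERAD complex with a ubiquitin-like domain. In COLO858 it was at 24.2 and 26.8 FPKM under DMSO, 41.0 and 44.0 at 24 h, and 23.4 and 22.9 at 48 h, so that the 24 h libraries stood above the other 4. In MMACSF it was at 30.6 and 29.6, 23.5 and 25.3, and 21.5 and 22.2 FPKM, with the controls highest. The 24 h fold-change was 0.72 (SE 0.129, adjusted p = 0.0160) in COLO858 and −0.29 (adjusted p = 0.128) in MMACSF. Neither passed the threshold, but their difference did, at 1.01 (SE 0.136, adjusted p = 0.00344). At 48 h the difference was 0.31 (adjusted p = 0.182).

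SEL1L, the adaptor of the SYVN1 (HRD1) ubiquitin ligase, was above its controls at 24 h in both lines, with fold-changes of 0.84 in COLO858 (SE 0.295, adjusted p = 0.0945) and 0.67 in MMACSF (SE 0.245, adjusted p = 0.116). Its level was 11.5 and 17.8, 22.2 and 31.3, and 15.9 and 21.9 FPKM over the COLO858 groups, with replicate 2 above replicate 1 each time. SYVN1 had a 24 h fold-change of 0.43 in COLO858 (adjusted p = 0.0732) and 0.15 in MMACSF. EDEM1, which hands misfolded glycoproteins to ERAD, had −0.93 at 48 h in COLO858 (adjusted p = 0.0377) and −0.40 in MMACSF (adjusted p = 0.307). EDEM2, DERL1, and DERL2 lay between −0.30 and 0.44 against DMSO in both lines. DERL3, at 0.968 to 4.25 FPKM in COLO858, was listed at 0 to 0.135 FPKM in MMACSF.

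The 9 genes of translocation and vesicle traffic had 0 members past the threshold in any comparison by limma. At 48 h in MMACSF 6 of the 9 had an unadjusted p under 0.05, the median was −0.49, and 7 lay below 0 (8 after rescaling). There SEC61B, a subunit of the translocon, had −0.56 (SE 0.128, adjusted p = 0.0303), and SSR2, of the translocon-associated TRAP complex, had 0.58 (SE 0.119, adjusted p = 0.0230) while SSR1 and SSR3 of the same complex had −0.56 (adjusted p = 0.197) and −0.58 (adjusted p = 0.128). In COLO858 the 48 h median was −0.12. KDELR3, a receptor that returns escaped ER chaperones from the Golgi, was at 57.6 and 62.7 FPKM in COLO858 under DMSO, 32.5 and 35.7 at 24 h, and 29.5 and 37.0 at 48 h. Its treated libraries lay below both controls, with fold-changes of −0.80 (adjusted p = 0.0214) and −0.84 (adjusted p = 0.0185). After median-ratio rescaling KDELR3 passed the threshold at both times (−0.91, adjusted p = 0.00662, and −0.88, adjusted p = 0.00787). In MMACSF KDELR3 ranged from 30.4 to 41.8 FPKM over all groups. SEC61A1, the pore of the translocon, had 0.26 at 24 h in COLO858 and −0.21 in MMACSF, a difference of 0.48 (adjusted p = 0.0357). SEC23B and SEC24D, coat proteins of the vesicles that leave the ER, and KDELR2 had fold-changes against DMSO between −0.55 and 0.16.

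PPP1R15A, the regulatory subunit that directs phosphatase to eIF2α, was at 39.7 and 35.2 FPKM in COLO858 under DMSO, 42.3 and 42.4 at 24 h, and 63.8 and 56.3 at 48 h. The 48 h libraries were the highest of the line, with a fold-change of 0.67 (SE 0.136, adjusted p = 0.0232) that was not past the threshold. In MMACSF PPP1R15A was at 54.7 and 45.5, 49.9 and 43.0, and 51.5 and 45.1 FPKM, with overlapping groups. DNAJB9, DNAJC3, SEL1L, KDELR3, and PPP1R15A are described here although they did not pass the threshold, a choice made after their values were seen.

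From 24 to 48 h, limma called 0 of 37 members in COLO858, against 1.38% of all genes (1.17% higher and 0.213% lower), with 8 at an unadjusted p under 0.05. It called 0 of 36 in MMACSF, against 0.222% of all genes (0.111% higher and 0.111% lower), with 6 at an unadjusted p under 0.05. In COLO858 29 of 37 members had a lower mean at 48 h than at 24 h (26 after rescaling), with a median of −0.26 against −0.07 for all genes, and for the 9 chaperones the median was −0.63. In MMACSF the count was 30 of 36, with a median of −0.20 against −0.02. The shape of the time course is given by the group means. In COLO858 16 of 37 members were highest at 24 h and 13 decreased from DMSO to 24 h and on to 48 h. In MMACSF 9 of 36 were highest at 24 h and 21 decreased at each step. These shapes were not counted over all genes. From 24 to 48 h, 42% of all genes tested in COLO858 and 46.7% in MMACSF had fold-changes above 0.

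The difference in response between the lines was tested as an interaction over the 12 libraries. At 24 h, 4 of 37 members differed (10.8%, against 3.71% of 13595 genes), HSPA5, HYOU1, MANF, and HERPUD1, each with the higher fold-change in COLO858. In that direction 1.78% of all genes differed, and 1.93% in the other. After rescaling, 6 members differed, these 4 and, with the lower fold-change in COLO858, ERO1LB and KDELR3, against 4.5% of all genes. At 48 h, 1 of 37 differed, ERO1LB, with the lower fold-change in COLO858 (2.70%, against 7.48% of all genes, 4.19% higher and 3.3% lower). The member median of the difference was 0.18 at 24 h and 0.21 at 48 h, against −0.01 and −0.04 over all genes. With 1 of the 8 libraries of the 24 h interaction left out, between 0 and 1 member passed. It was HYOU1 without MMACSF 24 h replicate 2 (1.03), MANF without COLO858 24 h replicate 1 or 2 (0.99 and 1.20), and HERPUD1 without COLO858 DMSO replicate 2 (1.08). Without COLO858 DMSO replicate 1 it was ERO1LB, lower in COLO858, and without either MMACSF DMSO replicate or MMACSF 24 h replicate 1 it was 0.

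Of the 36 members tested in both lines, 14 were below 0 at 24 h in both, 9 above in both, 10 above in COLO858 and below in MMACSF, and 3 the other way round. At 48 h the counts were 20, 4, 9, and 3. Of all genes tested at 24 h, 53.8% in COLO858 and 55.8% in MMACSF were above 0, and at 48 h 48.7% and 54.6% were. The counts over both lines together were not made for all genes. The DMSO libraries of the lines are separate, but each line's controls enter both times.

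**Figure D5:**
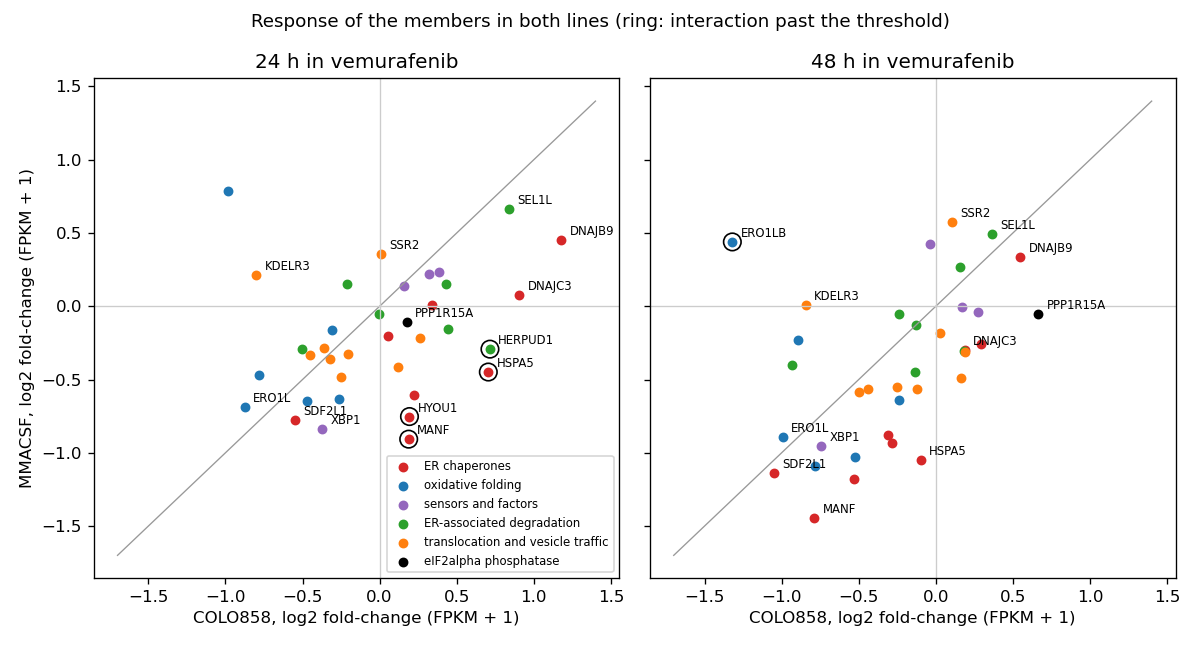
Fold-change of each member in COLO858 (x axis) against MMACSF (y axis) at 24 h and 48 h of vemurafenib (log2, FPKM + 1 scale; color gives the role, the diagonal marks equal response, and rings mark interactions past the threshold). At 24 h HSPA5, HYOU1, MANF, and HERPUD1 lie above 0 in COLO858 and below 0 in MMACSF. At 48 h ERO1LB, the only ringed gene, lies below 0 in COLO858 and above 0 in MMACSF.

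Of the promoter motifs, 7 of the 11 members past the threshold in any comparison held at least 1 (HSPA5, HSP90B1, HYOU1, PDIA6, XBP1, HERPUD1, and ERO1LB), against 11 of all 34 members with a window and 0.857% of the windows of all genes, and the difference was not tested. The other 4 (DNAJB11, MANF, PDIA4, and PDIA5) held no exact match in these windows. Members with ERSE did not share 1 course, since HSPA5 was highest at 24 h in COLO858, XBP1 was lower at each time, and CRELD2 was not past the threshold in any comparison.

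Beyond the 38 members, 77 other genes of the pathway were followed as lists. In COLO858 3 of 75 tested passed the threshold at 24 h (1 higher, 2 lower) and 6 at 48 h (1 higher, 5 lower), shares of 4% and 8% against 9.82% and 9.47% of all genes. At 48 h the list of the calnexin cycle and folding held 2 of them, of 13 tested (15.4%). The PERK and ATF4 arm held the 3 at 24 h (42.9% of its 7 tested genes) and 4 at 48 h (57.1%), 1 higher each time. The rise was ATF3, a stress-induced transcription factor, which went from 2.56 and 3.77 FPKM under DMSO to 9.76 and 12.4 at 24 h and 24.2 and 28.3 at 48 h, fold-changes of 1.54 (adjusted p = 0.00772) and 2.72 (adjusted p = 0.00182). Among those past the threshold, the largest fall at 24 h was TRIB3, a pseudokinase induced by ATF4 (−1.54, adjusted p = 0.00955), and at 48 h it was CHAC1, a glutathione-degrading enzyme (−2.16, adjusted p = 0.00631). ATF4, the factor translated when eIF2α is phosphorylated, fell from 461.1 and 485.3 FPKM to 227.3 and 248.4 at 24 h and 222.0 and 229.7 at 48 h (−0.99, adjusted p = 0.00415, and −1.06, adjusted p = 0.00383). In MMACSF ATF4 was at 241.9 and 220.4, 279.4 and 279.6, and 439.4 and 439.1 FPKM and rose by 0.92 at 48 h (adjusted p = 0.00447). Its response differed between the lines at 24 h (−1.27, adjusted p = 0.000879) and at 48 h (−1.99, adjusted p = 4.2e-05).

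In MMACSF 1 of 76 other pathway genes passed the threshold at 24 h, TRIB3 (−1.23, adjusted p = 0.00614), and 4 at 48 h, shares of 1.32% and 5.26% against 5.83% and 8.83% of all genes. Of these 4, ATF4 rose, and UFD1L, a VCP cofactor that extracts ERAD substrates, fell the most (−0.88, adjusted p = 0.00686), followed by the chaperone CALR (calreticulin) and the oligosaccharyltransferase subunit RPN2. DDIT3 (CHOP), the factor tied to death in prolonged ER stress, was at 14.6 and 16.4 FPKM in COLO858 under DMSO, 27.9 and 31.0 at 24 h, and 17.4 and 17.8 at 48 h. Its 24 h libraries were the highest, as for HSPA5 and HERPUD1, with a fold-change of 0.88 (SE 0.138, adjusted p = 0.0106) just outside the threshold. In MMACSF DDIT3 was at 122.9 and 101.3, 79.0 and 83.1, and 90.4 and 83.5 FPKM, and the 24 h responses differed by 1.34 (SE 0.171, adjusted p = 0.00268). Of the 76 other pathway genes, 4 differed between lines at 24 h (5.26%, against 3.71% of all genes). Among these 4, the difference of COLO858 from MMACSF was highest for ATF3 (1.55, adjusted p = 0.00924) and lowest for ATF4. At 48 h 6 differed (7.89%, against 7.48% of all genes), of which ATF3 (2.84, adjusted p = 0.000296) was highest and ATF4 lowest. From 24 to 48 h, 0 passed in either line by limma, with 10 in COLO858 and 6 in MMACSF at an unadjusted p under 0.05.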

How the data were processed

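Expression was measured by RNA-seq in 12 libraries, stranded mRNA libraries with single reads per the labels. The submitters' processing notes name TopHat, Cuffdiff, and the hg19 genome, with versions not given in the sources used here. The values used are FPKM, which the authors deposited as normalized values in 1 table per line, and 0 columns were left out. ERCC spike-in rows are not in the tables used here, and whole reads could not be recovered, so precision set by depth is unknown.

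Each line was fitted with limma 3.58.1 in R 4.3.3 (3 groups, log2(FPKM + 1), empirical Bayes with a mean-variance trend, two-sided, Benjamini-Hochberg over all genes whose mean in any group reached 1 FPKM). Differences between lines came from an interaction in 1 fit of the 12 libraries. The threshold was an adjusted p of 0.01. The fits were tested on simulated data, in which changed genes moved further than any member past the threshold did. The simulated libraries held no effect shared by replicate number. How often changes of the members' size are found was not tested.

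The 38 members, the role lists, and the 77 other pathway genes were chosen with earlier results of these data known. Values in every library are given for members past the threshold in any comparison and for HSPA5, XBP1, ATF6, and ERN1. Of the other pathway genes, the largest rise and fall per comparison, DDIT3, and ATF4 are named, and the remainder as counts, except where stated. Alternatives were an added value of 0.1 FPKM, no expression minimum, median-ratio rescaling per table, no trend, a replicate block, a fit of the 4 compared libraries alone, and fits without 1 library.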

Additional observations from a re-analysis of the deposited data

Results flagged for a closer look

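For 5 results the response to vemurafenib differed between COLO858 and MMACSF by limma's test of the interaction. At 24 h the fold-change was higher in COLO858 by 1.15 for HSPA5, 0.946 for HYOU1, 1.10 for MANF, and 1.01 for HERPUD1, on the log2(FPKM + 1) scale. At 48 h it was −1.76 for ERO1LB, lower in COLO858. With 2 libraries per group, no search for a library far from the others was made.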

How the results depend on the processing

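Adding 0.1 FPKM or dropping the mean-variance trend kept all 15 values of single members past the threshold, dropping the expression minimum kept 13, rescaling kept 14, and the replicate block kept 15, with 0 reversed under any alternative. Fitting only the 4 libraries compared kept 2 of 10, and leaving out 1 library kept 5 of 80, with a lone library assumed to vary like the other groups. The causes were not tested.

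The counts of members past the threshold moved as follows. Without the expression minimum, COLO858 at 48 h and the interaction at 48 h each gave 0 (5.46% and 5.64% of all genes). Rescaling gave 1 in COLO858 at 24 h (KDELR3), 4 at 48 h (PDIA6, ERO1LB, XBP1, and KDELR3, all lower), 4 in MMACSF at 24 h (HYOU1, MANF, PDIA6, and XBP1, all lower), and 2 in the interaction at 48 h (HSPA5 and ERO1LB), against 12.1%, 10.9%, 7.31%, and 8.85% of all genes. It gave 6 in the interaction at 24 h (4 higher, 2 lower). With only the 4 libraries compared, COLO858 at 48 h and MMACSF at 24 h gave 0, and MMACSF at 48 h gave 2 (3.95%, 1.89%, and 4.64% of all genes). Leaving out 1 library gave 0 to 0 in every comparison within a line, and 0 to 1 in the interactions at 24 and 48 h.

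With the replicate number as a block, 20 members passed in COLO858 at 24 h (9 higher, 11 lower, HSPA5 at adjusted p = 0.000674 and HERPUD1 at 0.00125 among the higher), 20 at 48 h, and 11 from 24 to 48 h. In MMACSF it was 13 at 24 h and 20 at 48 h, and in the interactions 11 and 19. In these fits 45.0%, 43.7%, 18.0%, 26.1%, 30.1%, 17.6%, and 25.3% of all genes passed. The labels do not say what the numbers share, and with 2 pairs per comparison the pairing was not taken as given. Deviations of same-numbered libraries correlated over all genes at 0.196 to 0.211 in COLO858 and 0.0628 to 0.113 in MMACSF, and over the members at 0.883 to 0.915 and 0.757 to 0.874. For 18 of 37 members replicate 2 was above replicate 1 in all 6 groups, and for 6 it was below. The sum of FPKM and the share of MIR4461 were also higher in replicate 2 in all 6 groups.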
